A study of Mus musculus with 2 samples.

Results

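A bidirectional promoter is the stretch of DNA between the starts of 2 neighbouring genes that are read in opposite directions, away from each other. Here it was the stretch between the outermost 5′ ends of 2 protein-coding genes on opposite strands, pointing away from each other and at most 1000 bp apart, in GENCODE M21 on mouse build mm10. The annotation alone chose the promoters, and no measured value was used. There were 754 such gene pairs. Where stretches overlapped they were merged, which removed 21 and left 733 bidirectional promoters with 1487 genes, 6.78% of the 21938 protein-coding genes. Of the 208965 deposited peaks of replicate 1, 752 overlapped such a stretch by at least 1 bp, and of the 196870 of replicate 2, 764 did.

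The peaks come from DNase-seq, in which the nuclease DNase I cuts DNA that is accessible in nuclei and the cut sites are sequenced. The tissue was limb of mouse embryos at 14.5 days, strain B6NCrl, with males and females pooled, in 1 group of 2 biological replicates with 1 library each; the labels name no treatment or altered genotype. The labels give both libraries the same donor identifier, so the spread between them may be technical, and with 1 group no test was made between conditions. Limb tissue mixes many cell types, so a weaker peak that is open in fewer cells and one that is less accessible in every cell cannot be told apart.

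Gene pairs of this kind are common in mammalian genomes and often serve basic functions of the cell, such as DNA replication and repair, mitochondrial metabolism and the packaging of DNA by histones. Their promoters usually lie in CpG islands, and they tend to hold binding sites for factors such as ETS proteins and NFY, which binds the CCAAT box, and to lack a TATA box. The polymerases start on opposite strands at the edges of a stretch of nucleosome-depleted DNA, which is what DNase I cuts.

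To show what such a peak holds, the strongest shared peak of 6 bidirectional promoters is printed below, 150 bp each, from RefSeq GRCm38.p6, which has the coordinates of mm10. All are on the + strand, 5′ to 3′, and capitals mark the motif matches on either strand. They were chosen from the named pairs to cover the motifs described further on.
Hjurp-Trpm8: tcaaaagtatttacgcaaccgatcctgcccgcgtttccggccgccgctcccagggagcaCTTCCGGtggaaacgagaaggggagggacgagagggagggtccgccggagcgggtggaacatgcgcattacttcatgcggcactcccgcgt
Mcm4-Prkdc: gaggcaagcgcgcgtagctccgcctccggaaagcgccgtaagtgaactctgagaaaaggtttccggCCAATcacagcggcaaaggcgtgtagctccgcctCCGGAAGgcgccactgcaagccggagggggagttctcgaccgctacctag
Hsp90b1-Ttc41: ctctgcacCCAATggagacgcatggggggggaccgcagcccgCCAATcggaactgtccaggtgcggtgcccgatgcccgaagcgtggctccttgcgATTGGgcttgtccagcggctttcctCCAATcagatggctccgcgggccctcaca
Hist1h2bf-Hist1h2ad: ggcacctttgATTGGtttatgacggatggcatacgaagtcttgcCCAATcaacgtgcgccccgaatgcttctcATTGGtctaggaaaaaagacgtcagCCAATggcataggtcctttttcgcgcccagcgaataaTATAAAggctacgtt
Mrpl49-Fau: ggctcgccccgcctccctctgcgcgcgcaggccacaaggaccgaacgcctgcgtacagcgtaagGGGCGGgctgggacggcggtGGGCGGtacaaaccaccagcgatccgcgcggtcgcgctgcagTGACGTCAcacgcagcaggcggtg
Styxl1-Mdh2: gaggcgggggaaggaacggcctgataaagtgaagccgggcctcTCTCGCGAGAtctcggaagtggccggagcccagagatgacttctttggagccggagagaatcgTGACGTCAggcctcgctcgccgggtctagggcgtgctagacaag

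The first peak (chr1:88277556-88277705) lay at the promoter of Hjurp, a chaperone that loads the centromeric histone, and Trpm8, an ion channel that senses cold. The 5′ end of Hjurp was at base 78 of the run and that of Trpm8 at base 106, so that 1 peak covered both ends, and its capitals are an ETS match read on the other strand. The second (chr16:15637396-15637545) began at the start of Mcm4, a subunit of the replicative helicase, whose 5′ end was at base 5; the partner is Prkdc, the catalytic subunit of the DNA-dependent protein kinase. It held 1 ETS and 1 CCAAT match. The third (chr10:86705556-86705705) lay between the ends of Hsp90b1, the HSP90 chaperone of the endoplasmic reticulum, and Ttc41, and held 4 CCAAT boxes. The fourth (chr13:23574276-23574425), at the promoter of the histone genes Hist1h2bf and Hist1h2ad, had the 5′ end of Hist1h2ad at base 106 and held 4 CCAAT boxes and a TATA match. That TATA match lay downstream of the annotated 5′ end of Hist1h2ad. The fifth (chr19:6057776-6057925) covered both ends of Mrpl49, a protein of the mitochondrial ribosome, and Fau, which encodes a ubiquitin-like protein fused to a ribosomal protein; it held 2 SP matches and 1 CRE match. The sixth (chr5:135778416-135778565) lay at the promoter of Styxl1, a catalytically inactive phosphatase-like protein, and Mdh2, the mitochondrial malate dehydrogenase, whose 5′ end was at base 65. It held 1 CRE match and 1 match of the motif of ZBTB33.

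The 733 stretches were short. Their median length was 131 bp, with quartiles of 67 and 243 bp and a range of 1 to 987 bp, and 412 of them (56.2%) were at most 150 bp, the width of 1 peak. The other 20451 protein-coding genes served as single promoters, each given the 131 bp upstream of its 5′ end. Among these, 895 overlapped another coding gene head to head and 737 had a noncoding gene starting head to head within 1000 bp.

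Each library was described on its own scale. The peak signal is the authors' own whole number, with a median over all peaks of 42 in replicate 1 and 31 in replicate 2 and a highest value of 148 in replicate 1 and 143 in replicate 2. Its scaling is not given in the sources used here and the number of reads behind it is unknown, so signals were compared within a library or by rank. Of the marker genes checked, 5 of 7 limb mesenchyme genes and 2 of 2 cartilage genes had a peak within 500 bp of their 5′ end in both libraries. The forelimb gene Tbx5 had 3 peaks in replicate 1 and 0 in replicate 2, and the hindlimb gene Pitx1 had 0 in both. None of the 3 liver, 2 lung and gut and 1 photoreceptor genes had a peak in both libraries, and the only peak among them was at Alb in replicate 1, with a signal of 19.

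Nearly all bidirectional promoters were open in this tissue. A promoter counted as open when at least 1 peak overlapped its stretch. In replicate 1, 673 of 733 bidirectional promoters were open (91.8%, 95% Wilson interval 89.6 to 93.6%), against 10069 of 20451 single promoters (49.2%, 48.5 to 49.9%). In replicate 2, 671 bidirectional promoters were open (91.5%, 89.3 to 93.3%), against 9984 single promoters (48.8%, 48.1 to 49.5%). The difference was 42.7 ± 0.101 percentage points (mean ± SD, n = 2 libraries). The intervals cover counting over promoters and not variation between animals.

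Most bidirectional promoters were open in both libraries. A shared peak is one of which 50% or more overlapped a peak of the other library. A shared peak was found in 658 bidirectional promoters (89.8%, 95% Wilson interval 87.4 to 91.8%), against 9165 single promoters, 44.8% of those measured (44.1 to 45.5%). All 733 are accounted for by 663 open in both libraries, 10 open in replicate 1 alone, 8 in replicate 2 alone and 52 in neither. Of the peaks themselves, 721 of 752 (95.9%) in replicate 1 and 722 of 764 (94.5%) in replicate 2 were shared. Among single promoter peaks 90.3% and 91.1% were shared in replicates 1 and 2, and among all peaks 61.2% and 65.0%.

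The peaks in bidirectional promoters were among the strongest of each library. In replicate 1 the strongest peak of an open bidirectional promoter had a median signal of 128 (quartiles 120 and 134), against 114 (80 and 128) for an open single promoter. In replicate 2 the medians were 105 (91 and 116) and 86 (57 and 104) for bidirectional and single promoters. The lower quartiles were further apart than the upper ones: few bidirectional promoters had a weak peak, while single promoters spread over the whole scale. Of all bidirectional promoter peaks, 700 (93.1%) in replicate 1 and 691 (90.4%) in replicate 2 were in the top 10% of signals in their library, against 68.8% and 66.8% of single promoter peaks. The median bidirectional promoter signal exceeded that of 75.9 ± 0.585% of open single promoters (mean ± SD, n = 2), where 50% would mean equal medians.

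**Figure D1:**
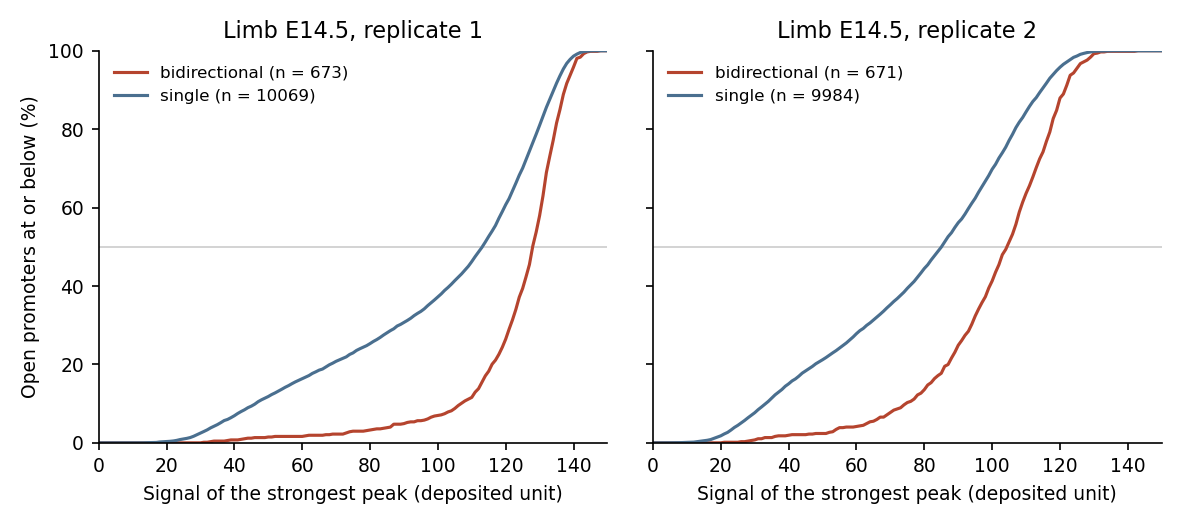
Cumulative share of open promoters (y axis, %) whose strongest peak has at most a given signal (x axis, the deposited unit), for bidirectional (red) and single (blue) promoters in each replicate; the grey line marks 50%. The bidirectional curve crosses it at 128 in replicate 1 and 105 in replicate 2, to the right of the single curve at 114 and 86.

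The broader deposited regions, called hotspots, gave the same order. A hotspot overlapped 94.7% of bidirectional promoters in replicate 1 and 94.5% in replicate 2, against 57.5% and 55.2% of single promoters. Hotspots at bidirectional promoters were wider, with medians of 1310 bp and 900 bp in replicates 1 and 2, against 1041 and 692 bp at single promoters. The deposited −log10 q-value reached its ceiling of 100 in 98.8% and 97.8% of the hotspots at bidirectional promoters, which leaves little room to rank them.

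Several peaks were found in a larger share of bidirectional promoters than of single promoters given 131 bp, a comparison not matched for length. In replicate 1, 71 open bidirectional promoters had 2 peaks and 4 had 3, together 11.1%, against 1.42% of open single promoters. In replicate 2, 79 had 2 peaks and 7 had 3, together 12.8%, against 1.76%. The mean number of peaks per open promoter was 1.12 in replicate 1 and 1.14 in replicate 2, against 1.01 and 1.02 in single promoters, a ratio of 1.11 ± 0.0123 (mean ± SD, n = 2). Peaks are 150 bp wide and seldom overlap each other, 3.66% of them in replicate 1 and 3.45% in replicate 2, so a short stretch has room for few.

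The number of peaks followed the length of the stretch. Single promoters given the same length have an annotated 5′ end at 1 edge only, while bidirectional ones have one at each edge. The part of the second 5′ end in the differences below was not tested. No bidirectional promoter of up to 50 bp had more than 1 peak in either library, against 0.62% and 0.902% of single promoters given such a length. Over 100 and up to 200 bp, 0% and 1.11% of open bidirectional promoters had several, against 1.64% and 2.01% of single ones. Over 200 and up to 300 bp the order was reversed, at 16.5% and 19.6% against 4.86% and 5.52%. Over 300 and up to 500 bp, 24 of 62 open bidirectional promoters in replicate 1 (38.7%) and 24 of 63 in replicate 2 (38.1%) had several, against 10.3% and 11.1% of single promoters given a stretch of that length. Over 500 bp the shares were 60% and 67.2% in bidirectional promoters, against 28.4% and 27.1% in single promoters. The mean number there was 1.67 peaks in replicate 1 and 1.79 in replicate 2, against 1.31 and 1.3 in single promoters. Over 50 and up to 100 bp, bidirectional promoters had 1 and 1.01 peaks in replicates 1 and 2, and single promoters 1.01 in both.

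**Figure D2:**
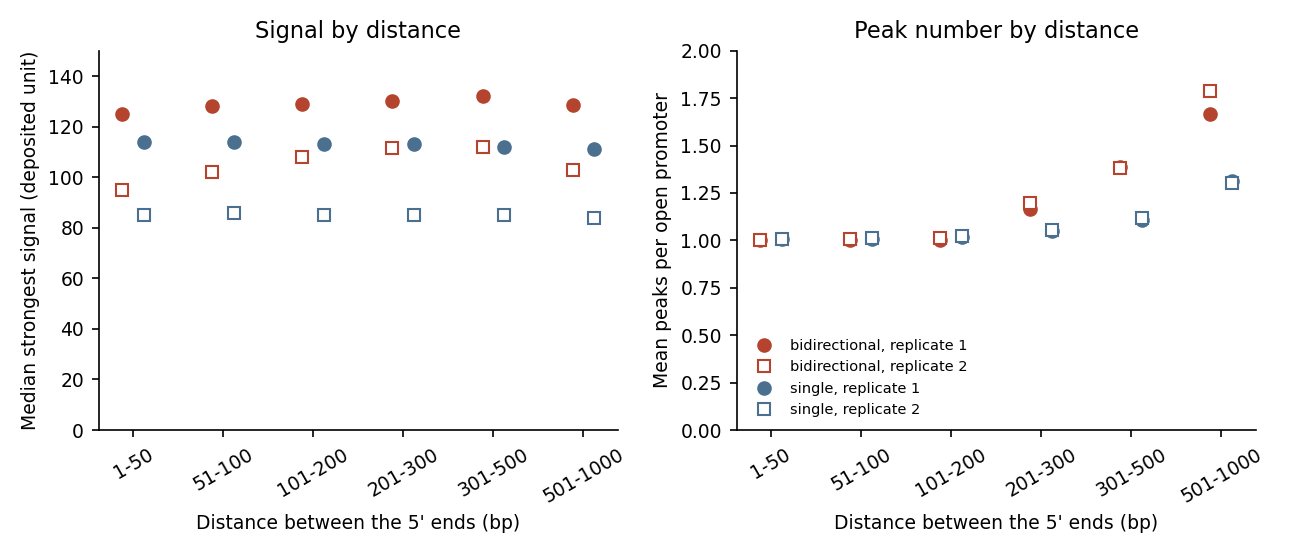
Median signal of the strongest peak (left, deposited unit) and mean number of peaks per open promoter (right) against the distance between the 5′ ends in bp, for bidirectional (red) and single promoters given the same length (blue), with filled circles for replicate 1 and open squares for replicate 2. Peak number in bidirectional promoters climbs to 1.67 and 1.79 over 500 bp, against 1.31 and 1.3 in single promoters.

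Signal changed less with length. The median signal of bidirectional promoters was 125 and 95 in replicates 1 and 2 up to 50 bp, 132 and 112 over 300 and up to 500 bp, and 128.5 and 103 over 500 bp. Over open bidirectional promoters, Spearman's rho of length with strongest signal was 0.144 in replicate 1 (n = 673) and 0.247 in replicate 2 (n = 671), a description across promoters that share a library. Single promoters given stretches of those lengths had medians of 111 to 114 in replicate 1 and 84 to 86 in replicate 2 at every length. The open share of bidirectional promoters was lowest in those over 500 bp, at 85.7% and 87.1%, and these also had the lowest median CpG ratio, 0.540.

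The longest stretches show how several peaks share a promoter. Between Btf3l4 and Txndc12, a thioredoxin-like protein of the endoplasmic reticulum, 987 bp apart, replicate 1 had peaks of 138, 120 and 117 and replicate 2 peaks of 126, 73 and 84. The first was the strongest in both libraries, and all 3 were shared. Between Smim7 and Tmem38a, a cation channel of the sarcoplasmic reticulum, 967 bp apart, the signals in replicate 1 were 129, 82 and 95, and those in replicate 2 were 117, 61 and 63. The promoter of Prr11 and Ska2, a kinetochore protein, 526 bp long, had a pair of peaks of near equal strength, 134 and 140 in replicate 1 and 121 and 130 in replicate 2. That of Cep57, a centrosomal protein, and Fam76b also had a pair, 135 and 143 in replicate 1 and 115 and 130 in replicate 2. Lamtor2, a subunit of the complex that anchors mTORC1 to lysosomes, and Ubqln4, a ubiquilin, had 2 peaks in replicate 1 (141 and 118) and 3 in replicate 2 (129, 61 and 80), of which 2 were shared.

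On either side of the limit of 1000 bp most pairs had a peak in both libraries. Just inside it, Zfyve26-Rad51b (978 bp) had strongest signals of 129 and 114 in replicates 1 and 2, and Asphd1-Sez6l2 (981 bp) 111 and 77. Just outside it, Gpr108-Trip10 (1009 bp) had 133 and 99, Sgsm2-Tsr1 (1011 bp) 120 and 86, Dirc2-Hspbap1 (1019 bp) 120 and 68, and Ppt2-Prrt1 (1023 bp) 41 and 38, while Serpina7-4930513O06Rik (1007 bp) had no peak.

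CpG content differed between the classes. The observed to expected CpG ratio in the 500 bp around the middle of the stretch had a median of 0.831 in bidirectional promoters and 0.516 in single promoters. A ratio of at least 0.6, called CpG-rich here, was found in 628 bidirectional promoters (85.7%) and 8998 single promoters (44.0%). The comparisons above were therefore repeated among CpG-rich promoters.

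Among CpG-rich promoters the difference in openness was smaller. In replicate 1, 602 of 628 bidirectional promoters (95.9%) were open, against 83.4% of single promoters, and in replicate 2, 597 (95.1%) were open, against 82.9%. The difference was 12.3 ± 0.217 percentage points (mean ± SD, n = 2), against 42.7 over all promoters. Median signals were 129 and 106 in bidirectional promoters and 121 and 93 in single promoters, in replicates 1 and 2. Several peaks were found in 9.14% and 10.9% of open CpG-rich bidirectional promoters, against 1.04% and 1.39% of single ones. The single stretches were all 131 bp here, so these shares are not matched for length.

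The difference in openness was larger among CpG-poor promoters, whose bidirectional stretches were mostly longer. With a ratio under 0.6, 71 of 105 bidirectional promoters (67.6%) were open in replicate 1 and 74 (70.5%) in replicate 2, against 22.4% and 22.0% of single promoters. Their median signals were 120 and 96, against 68 and 50. The bidirectional stretches had a median length of 508 bp where the ratio was 0.2 to 0.4 (26 promoters) and 265.5 bp where it was 0.4 to 0.6 (64 promoters), against the 131 bp given to single promoters; the part of this length in the difference was not tested. With a ratio of at most 0.2, 3 of 15 bidirectional promoters (20%) were open in each library, against 5.28% and 5.56% of single promoters.

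**Figure D3:**
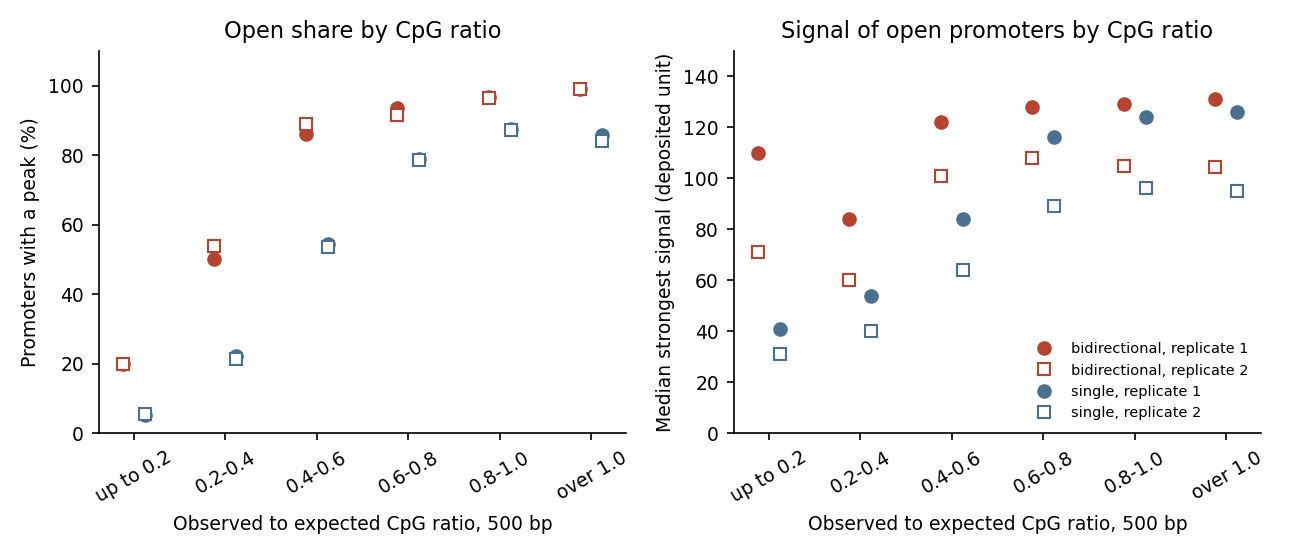
Share of promoters with a peak (left, %) and median signal of the strongest peak in open promoters (right, deposited unit) against the observed to expected CpG ratio, for bidirectional (red) and single (blue) promoters, with filled circles for replicate 1 and open squares for replicate 2. Bidirectional promoters lie above single promoters in every bin, from 20% against 5.28% at a ratio of at most 0.2 to 98.9% against 85.7% above 1 in replicate 1.

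The choice of window mattered as well. In place of the stretch, a window of 1000 bp centred on the middle of the pair, or on the 5′ end of a single promoter, gave an open share difference of 34.3 percentage points. This changed the width and the placement of the window together, and their separate parts were not tested. With that window and CpG-rich promoters together, an alternative chosen after seeing the data, the difference was 3.27 ± 0.739 points and the ratio of peak numbers 1.01 ± 0.0320 (mean ± SD, n = 2). The position of the bidirectional median among single promoters was 72.6 ± 0.961% under that choice. So the higher signal of bidirectional promoters was seen under this choice too, whereas the difference in openness was below 4 points and that in peak number, 0.983 in replicate 1 and 1.03 in replicate 2, changed direction between the libraries.

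A noncoding gene in the place of the second coding gene gave open shares and signals in between. The 737 single promoters with a noncoding gene starting head to head were open in 77.1% in replicate 1 and 76.8% in replicate 2, with median signals of 125 and 98. Where CpG-rich, 90% and 88.9% were open, below the 95.9% and 95.1% of CpG-rich bidirectional promoters and above the 83.6% and 83.2% of the single promoters with no divergent gene. Several peaks were found in 0.176% and 0.707% of the open promoters with a divergent noncoding gene. This was below the 1.54% and 1.79% of single promoters with no divergent gene, which had the same stretch of 131 bp. The 11.1% and 12.8% of bidirectional promoters are not matched for length, as those stretches ran up to 987 bp. Bidirectional stretches over 100 and up to 200 bp had several peaks in 0% and 1.11%. The 895 coding genes that overlap another head to head were open in 66.4% and 67.3%.

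The strongest peak was centred within 50 bp of the midpoint in 65.7% and 66.8% of open bidirectional promoters in replicates 1 and 2. A peak had to overlap the stretch, so in short stretches its centre could not lie far from the midpoint. The centre of the strongest peak lay a median of 29 bp from the midpoint in replicate 1 and 31 bp in replicate 2, and between both 5′ ends in 76.7% and 76.5% of open bidirectional promoters. In 254 promoters in replicate 1 and 251 in replicate 2 it covered both 5′ ends. For stretches of up to 100 bp this was so in 83.6% and 82.9%. Above 300 bp the strongest peak was 170 bp and 175 bp from the midpoint in the median. It covered both ends in 0 promoters, which was fixed in advance, as a peak of 150 bp cannot span such a stretch.

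Seen from each gene, the strongest peak within 500 bp lay further upstream than in single promoters. With negative positions upstream, its centre had a median position of -56.5 bp from the 5′ end in both libraries, and it was upstream in 83.7% and 82.8% of the genes of bidirectional promoters that had such a peak. In CpG-rich single promoters the median position was -32.5 and -37.5 bp in replicates 1 and 2, and the peak was upstream in 69.2% and 71.8%. Over 100 bp downstream of the 5′ end lay 4.68% and 5.41% of these peaks in bidirectional promoters, against 12.8% and 12% in CpG-rich single promoters. The 2 genes of a pair share a peak, so these positions are not independent of each other. By the definition of the class the partner's 5′ end lies upstream of each gene. A peak between both ends is therefore upstream of both genes, and the part of this in the difference was not tested.

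**Figure D4:**
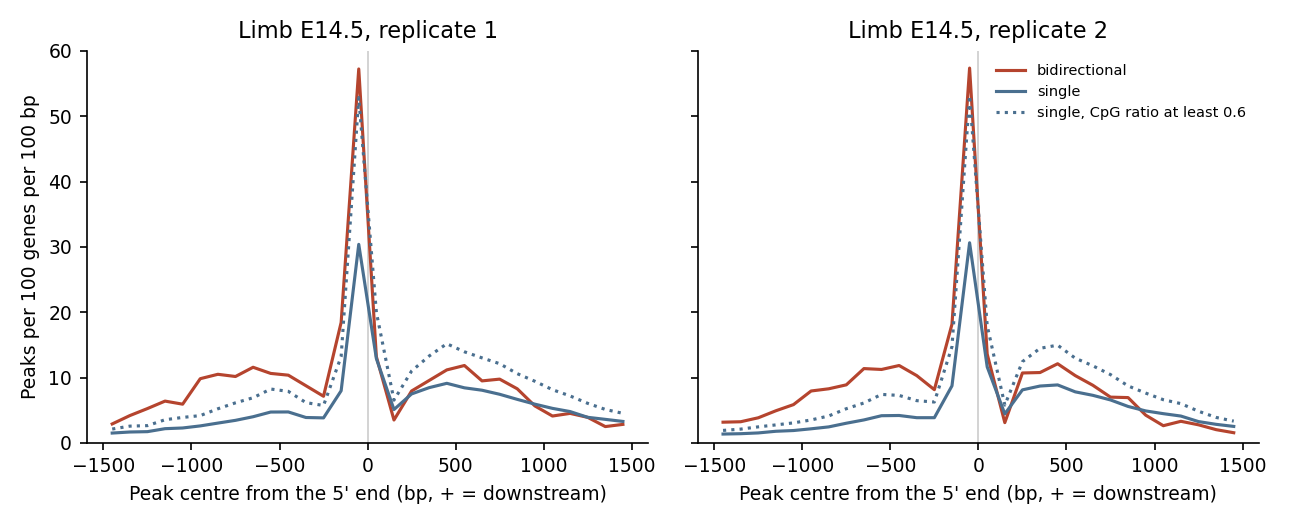
Peak centres per 100 genes in bins of 100 bp (y axis) by distance from the 5′ end (x axis, bp, positive downstream), for genes of bidirectional promoters (red), single promoters (blue) and CpG-rich single promoters (dotted blue) in each replicate. In the 100 bp before the 5′ end there are 57.2 and 57.4 peaks per 100 genes of bidirectional promoters in replicates 1 and 2, against 52.9 and 53.2 in CpG-rich single promoters and 30.4 and 30.6 in all single promoters; the shoulder of the red line at -1000 to -400 bp includes peaks downstream of the partner gene.

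The letters of the peaks were then searched for 10 motifs on both strands. CCGGAAG is the core bound by ETS factors. GGGCGG is the GC box of SP factors. CCAAT is bound by NFY, and TGACGTCA by the CREB and ATF factors (CRE). AAGATGGCG is the site of YY1. CAGCTG is an E-box of bHLH factors, and TGANTCA the site of AP1. TATAAA is the TATA box. The longer motifs of NRF1 and ZBTB33 complete the set, and no motif contains another. The strongest shared peak of 658 bidirectional promoters was set beside that of single promoters, 9051 different peaks, and all 127617 shared peaks. A match is a description of the letters and not evidence of binding.

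CCAAT boxes and ETS matches were found in a larger share of bidirectional promoters. NFY letters were in 39.4% of the bidirectional peaks, 29.9% of the single promoter peaks and 20.1% of all shared peaks, and ETS letters in 21.4%, 14.0% and 2.56%. Among CpG-rich promoters the shares were 39.0% in bidirectional against 30.6% in single peaks for NFY and 23.4% against 16.5% for ETS. SP letters stood the other way, at 58.6% of CpG-rich bidirectional and 64.9% of CpG-rich single peaks. The ZBTB33 motif was rare, in 2.37% (14 peaks) against 1.12%, and CRE letters were in 4.24% against 3.97%. E-box letters were in 4.41% against 7.01%, and TATA letters in 1.69% against 2.05%. None of the 10 motifs was found in 12.3% of bidirectional, 17.7% of single and 46.1% of all shared peaks.

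**Figure D5:**
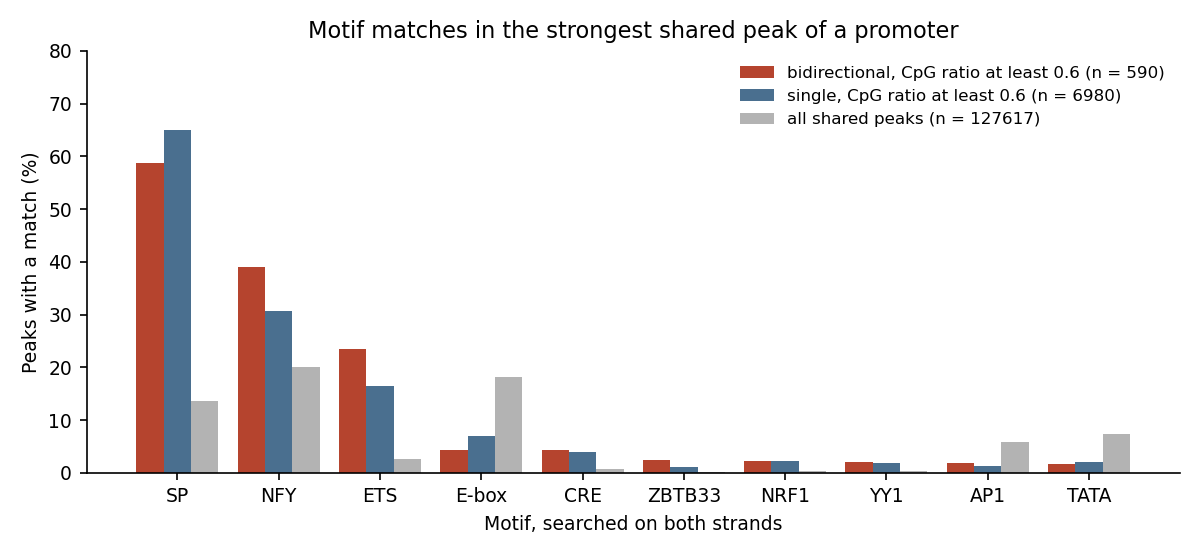
Share of peaks (y axis, %) with a match to each of 10 motifs (x axis), in the strongest shared peak of CpG-rich bidirectional promoters (red, n = 590), of CpG-rich single promoters (blue, n = 6980) and in all shared peaks (grey, n = 127617). NFY stands at 39.0% against 30.6% and ETS at 23.4% against 16.5% in bidirectional and single promoters, while SP stands at 58.6% against 64.9%.

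The mix of motifs differed with the length of the stretch. In bidirectional promoters of up to 100 bp, ETS letters were in 87 of 273 peaks (31.9%), against 15% over 100 and up to 200 bp and 13.2% above 200 bp. CCAAT boxes ran the other way, at 26.7% up to 100 bp, 48.9% over 100 and up to 200 bp and 47.8% above 200 bp. Several CCAAT boxes were found in 105 of the 658 peaks (16.0%), against 9.99% of single promoter peaks; the promoters of Hsp90b1-Ttc41 and Hist1h2bf-Hist1h2ad printed above, each with 4, are examples.

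Bidirectional promoters with a CCAAT box had stronger peaks. Their median signal was 131 in replicate 1 and 113 in replicate 2, against 127 and 99 without one. This was seen within each length class: up to 100 bp the medians were 131 and 107 with a box against 125 and 95 without, over 100 and up to 200 bp 130 and 112.5 against 129 and 106, and above 200 bp 132 and 116.5 against 129 and 101. Single promoters with a box also had higher medians, 124 and 102 against 112 and 83 without. For ETS the medians of bidirectional promoters were 127 and 103 with a match against 129 and 106 without, and the direction changed with length. Up to 100 bp they were 123 and 97 with a match against 128 and 100 without, over 100 and up to 200 bp 131 and 113 against 129 and 108, and over 200 bp 131 and 110 against 131 and 111. Single promoters with an ETS match had higher medians, 123 and 97 against 114 and 86 without. The 26 CRE and 15 ZBTB33 matches in bidirectional promoters lay at medians of 24 and 21 bp from the peak centre, and those in single promoters at 25 and 27 bp. In bidirectional promoters the medians were 32.5 bp for CCAAT boxes and 33 bp for SP letters.

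The 8 bidirectional promoters ranked highest over both libraries had strongest signals of 141 to 148 in replicate 1 and 126 to 143 in replicate 2. The strongest of all peaks in both libraries was that of Hjurp and Trpm8 (chr1:88277633-88277661), with signals of 148 and 143. Dtl, a substrate receptor of a ubiquitin ligase that acts at replication forks, and Ints7, a subunit of the Integrator complex, had 143 and 129. Skiv2l, an RNA helicase of the exosome's SKI complex, and Nelfe, a subunit of the factor that pauses RNA polymerase II, had 143 and 126. Most of these promoters thus had a single, very strong peak in each library. Styxl1-Mdh2 had 141 and 131, and 141 and 129 were measured both for Cdc26, a subunit of the anaphase-promoting complex, with Prpf4, a splicing factor, and for Rbbp4, a histone-binding chromatin protein, with Zbtb8os. Cep57-Fam76b and Lamtor2-Ubqln4, given above, complete the 8.

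The gene lists were read against all bidirectional promoters, of which 658 of 733 (89.8%) had a shared peak, with median signals of 128 and 105, and against the single promoters of the same list. The list of DNA replication and repair genes was a fixed set of symbols and not every gene of this function. It made 12 bidirectional promoters, of which 11 (91.7%) had a shared peak. Their median signals were 130 and 111 in replicates 1 and 2. Of the single promoters of this list 37 of 44 (84.1%) had a shared peak, with medians of 129 and 101. The share in bidirectional promoters was near that over all of them. Mcm4-Prkdc had 141 in replicate 1 and 122 and 97 in replicate 2, where a second peak was called. Atm, the kinase that signals DNA breaks, shares its promoter with Npat, a coactivator of histone genes, and had 139 and 120. The exception in this list was Pinlyp-Xrcc1. Its nearest peak lay 707 bp away in replicate 1 and 667 bp away in replicate 2, with strong signals of 132 and 122. Among repair genes outside the list, Rad51c-Tex14 and Dclre1a-Nhlrc2 had no peak in either library, while Xrcc3-Zfyve21 and Recql4-Lrrc14 had a shared peak. These examples were chosen after their values were seen.

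Genes of the mitochondrial ribosome and the respiratory chain made 46 bidirectional promoters, the largest list, of which 43 had a shared peak (93.5%), with median signals of 126 and 101. Of the single promoters in that list, 128 of 164 had a shared peak (78.0%), with medians of 122 and 95.5. Mrpl49-Fau had 140 and 123, Ndufa2-Ik 138 and 118, and Mrpl41-Pnpla7, 935 bp long, had 138 and 84 in replicate 1 and 123 and 69 in replicate 2. Mrpl32-Psma2, whose second gene encodes a proteasome subunit, had no peak in replicate 1 and 1 of 113 in replicate 2; in replicate 1 a peak of 131 lay 20 bp from the stretch.

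Chaperone genes made 12 bidirectional promoters, of which 10 (83.3%) had a shared peak, with medians of 132 and 108, against 43 of 71 single ones (60.6%), with medians of 123 and 97. Hsp90b1-Ttc41 had 138 and 134, Tbccd1-Dnajb11, with a co-chaperone of the endoplasmic reticulum, 139 and 118, and Hspa14-Cdnf 137 and 119. Cytosolic ribosomal protein symbols made 10, of which 8 (80%) had a shared peak, with medians of 127 and 103, against 68 of 92 single ones (73.9%), with medians of 126 and 107. In replicate 2 the median of this list was thus lower in bidirectional than in single promoters. Rpl9, with Lias, the lipoic acid synthase, had 137 and 103, Rpl36al, with the Golgi glycosyltransferase Mgat2, had 131 and 111, and Rps6kb1-Tubd1 had 125 and 116. The symbol rule also took in Rps6kb1, which is a kinase of a ribosomal protein and not a ribosomal protein itself.

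Replication-dependent histone genes made 14 bidirectional promoters, of which 11 (78.6%) had a shared peak, with medians of 121 and 109. Their single promoters were close to this, with a shared peak in 30 of 40 (75%) and medians of 120 and 107. Most of them join an H2A and an H2B gene, whose products pair in the nucleosome. The 3 highest were Hist1h2bf-Hist1h2ad with 134 and 120, Hist1h2an-Hist1h2bp with 134 and 112, and Hist1h2ah-Hist1h2bk with 130 and 115. Their hotspots were narrow, 162, 235 and 216 bp in both libraries, against a median of 1310 and 900 bp over all bidirectional promoters. Each width was the same to the base in both libraries, and the reason for the narrow width was not tested. The 3 with no peak were Hist1h2bq-Hist1h2ao, Hist1h2ap-Hist1h2br and Hist1h2ba-Hist1h2aa, the last a pair known from testis. In Hist1h2bq-Hist1h2ao and Hist1h2ap-Hist1h2br, 23 of 23 pieces of 36 bases taken from the 300 bp around the midpoint occurred more than once on chromosome 13. In the 11 with a peak and in Hist1h2ba-Hist1h2aa at most 1 of 23 occurred more than once on the pair's own chromosome. Copies on other chromosomes were not searched for. How reads that map to several places were treated is not given in the sources used here, and the part of these repeats in the missing peaks was not tested.

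Zinc finger protein genes made 22 bidirectional promoters, of which 16 had a shared peak (72.7%), with medians of 129 and 108, against 281 of 409 single ones (68.7%), with medians of 115 and 90. Rbbp4-Zbtb8os was taken in by its symbol. Zfp91-Lpxn, the second gene an adaptor of focal adhesions, had 138 and 124, and Zfp654-Cggbp1, the second gene a protein that binds CGG repeats, had 136 and 126. Genes of limb and mesenchyme patterning made 1 bidirectional and 87 single promoters, where all genes made 733 and 20451, and no difference from that share was tested. The bidirectional one joined Sox6, a transcription factor of cartilage formation, to 1110004F10Rik. It had peaks of 61 and 41 in replicate 1 and 30 in replicate 2, far below the class median, in a stretch of 601 bp with a CpG ratio of 0.489. Matrix genes made 2, of which 1 (50%) had a shared peak, against 34 of 63 single ones (54.0%). Col4a4-Col4a3, which encode collagen chains of basement membranes, had no peak, with the nearest 1475 bp away in replicate 1 and 8764 bp away in replicate 2. Polk-Col4a3bp had 137 and 118, but its second gene encodes a ceramide transfer protein and no collagen.

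The order of signals was similar in both libraries. Over the 663 bidirectional promoters open in both, Spearman's rho of the strongest signal was 0.80, a description across promoters of the same 2 libraries; single promoters, whose signals spread more widely, had 0.919 (n = 9274). The 5 largest differences of rank were all at promoters of low or middling signal. The rank was the percentile among all peaks of a library. The median open bidirectional promoter stood at 98.1 and 98.0 in replicates 1 and 2, which left strong promoters little room to differ. Il17rb-Chdh, a cytokine receptor and the choline dehydrogenase, had 62 in replicate 1 and 31 in replicate 2, and Ppp1r3d-Fam217b had 73 and 41. Nup62cl-Pih1h3b on the X chromosome had 44 and 28. Sox6-1110004F10Rik was another of the 5. Grik5-Zfp574 had 33 and 36, at percentiles of 30.5 and 61.1, on peaks that were not shared.

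Neither library had a peak in 52 bidirectional promoters. Their median CpG ratio was 0.517, against 0.845 in those open in both, and 30 of them had a ratio under 0.6. In 10, a gene had a predicted or clone symbol. A peak lay within 200 bp of the stretch in 18 of them in replicate 1 and 17 in replicate 2. Of the 6 shortest with named genes, Zfp142-Bcs1l (43 bp) had a peak of 136 and 126 lying 1 bp from the stretch in replicates 1 and 2, and Dzip3-Cip2a (20 bp) had peaks of 136 and 122 at 20 and 40 bp. Dclre1a-Nhlrc2 (39 bp) had 86 and 45 at 117 and 57 bp, and Zfp944-Zfp758 (53 bp) had 43 and 31 at 115 and 143 bp. Best1-Rab3il1 (36 bp) and Rnf151-Rps2 (53 bp), with CpG ratios of 0.0532 and 0.129, had no peak within 1000 bp. In Rnf151-Rps2, with the gene of an abundant ribosomal protein, the nearest peak lay 1820 bp from the stretch in both libraries. It was strong, with signals of 132 and 121, and the 5′ ends used are annotated and not measured here.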

How the data were processed

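DNase-seq peaks and hotspots of 2 limb libraries were used. Per the labels, coordinates are on mm10. What aligner, peak caller and filters were used is not given in the sources used here. For each peak the authors deposited a signal, a whole number of unstated scaling, and for each hotspot a −log10 q-value. Peaks were called in each library separately. Peaks off chromosomes 1 to 19, X and Y (291 in replicate 1, 277 in replicate 2) and exact duplicates (47 and 27) were dropped, leaving 208627 and 196566. Read numbers are unknown, so no interval that needs them is given.

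Genes came from GENCODE M21. The CpG ratio was computed over 500 bp and motifs over 150-bp peaks, with Python 3.11.15, numpy 2.4.6, pandas 2.3.3 and scipy 1.17.1. The steps were tested on simulated peaks. With 1 group of 2 libraries no test across conditions was made; values are given per library and differences as mean ± SD. The rule for naming took the 8 promoters of highest mean rank, the 5 with most shared peaks, the 5 with the largest rank difference, the 6 shortest with no peak, and up to 3 per gene list plus 1 with no shared peak; a few promoters taken by these rules are not reported here. The members and lists were chosen with earlier results of these data known. The alternatives tried are given under the processing choices at the end.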

Additional observations from a re-analysis of the deposited data

How the results depend on the processing

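Each comparison of bidirectional with single promoters was recomputed under alternative choices. The mean of the 2 libraries kept its direction under all of them, apart from the signal position with hotspots, which could show none. The open share difference, 42.7 points, was 43.8 with 5′ ends at most 500 bp apart, 49.5 with the 50000 strongest peaks, 44.2 with an overlap of at least 75 bp, 34.3 with a 1 kb window, 43.2 with single promoters given every pair's length, 12.3 with CpG-rich promoters, 44.6 without single promoters that have a divergent gene, 39.9 without predicted symbols and 38.3 with hotspots. In the same order, the signal position, 75.9%, was 76.0 (within the spread of the libraries), 72.0, 74.6, 78.3, 76.5, 71.7, 77.3, 76.7 and 56.9%. The ratio of peak numbers, 1.11, was 1.05 at 500 bp, 1.08 at 75 bp of overlap, 1.06 with the 1 kb window, 1.07 with every length, 1.09 with CpG-rich promoters and 1.02 with hotspots. The difference in the share with several peaks, 10.4 points, was 5.50, 7.12, 6.66, 6.65, 8.80 and 1.45 in that order. For these counts of peaks, the 50000 strongest peaks, leaving out divergent genes and leaving out predicted symbols moved the value by less than the spread of the libraries. The 1 kb window with CpG-rich promoters, chosen after seeing the data, gave 3.27 points, 72.6%, 1.01 and 0.722 points; that last value was -2.16 in replicate 1 and 3.6 in replicate 2. With 1 library left out, the open share difference ran from 42.6 to 42.7, the signal position from 75.4 to 76.3%, the ratio from 1.10 to 1.12 and the several-peak difference from 9.72 to 11.1. The share with a shared peak, 89.8%, was 90.6% at 1 bp of overlap and 39.7% at 90%. Among single promoters the share under these settings was 46.2% and 18.2%. At 90% a shift of the 20-bp grid by 1 step already fails. In 1 library alone no peak can be shared, and the share with any peak was 91.5 to 91.8%, against 48.8 to 49.2% of single promoters. The cause of the other changes was not tested. No paired analysis was possible because there is 1 group.

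Limits: the signal has no known unit and is compared within a library, most hotspots at bidirectional promoters sit at the ceiling of their value, both libraries carry the same donor identifier, and the 5′ ends are annotated and not measured in this tissue. A promoter without a peak was not called at this depth, which is unknown, and is not shown to be closed.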

Other observations

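The 19 bidirectional promoters of the X chromosome had a shared peak in 12 of 19 (63.2%), against 646 of 714 (90.5%) on the autosomes, with median signals of 114 and 97 in replicates 1 and 2 against 129 and 105. Single promoters of the X chromosome had a shared peak in 33.8% against 45.7% on the autosomes. The median CpG ratio of the X-linked bidirectional promoters was 0.683, against 0.835. No difference was tested, and the labels give a mix of male and female embryos.

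Of the 18 bidirectional promoters with a peak in 1 library alone, several had a strong peak in the other library just outside the stretch. These examples were chosen after their values were seen. L3hypdh-Jkamp had a peak of 135 in replicate 1 and, in replicate 2, a peak of 122 at 47 bp from the stretch. Hadha-Hadhb, which encode both subunits of the mitochondrial trifunctional protein of fatty acid oxidation, had 117 in replicate 1 and a peak of 79 at 37 bp in replicate 2. Zwilch-Rpl4 had 74 in replicate 2 and a peak of 117 at 59 bp in replicate 1. Weak ones were Pecam1-Milr1, with 21 in replicate 2 at the promoter of an endothelial adhesion protein, and Lypd4-Dmrtc2, with 31 in replicate 1. Nr2e1-Ostm1 had 42 in replicate 1.

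Among the bidirectional promoters with no peak in either library, a pair of examples was again chosen after their values were seen. Il11-Tmem190, with a cytokine gene, had its nearest peak 5374 bp away in both libraries, with signals of 84 and 64. Duox2-Duoxa2, which encode a peroxide-forming oxidase of the thyroid and its maturation factor, had peaks of 60 and 32 at 56 and 36 bp from the stretch in replicates 1 and 2.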
